A study of Homo sapiens with 6 samples.

Results

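The 50 genes described here work in the cell cycle and mitosis. They were chosen by symbol from a fixed list, and each symbol matched 1 of the 60676 genes in the count table. The genes fall into 8 roles, which are the centromere and kinetochore, the spindle checkpoint, mitotic kinases, the spindle and cytokinesis, mitotic chromosome structure, cyclins and their kinases, inhibitors of those kinases, and DNA replication with nucleotide supply. The question was how strongly these genes are expressed in the extract and whether CENPF is alone among them in its recovery with CyCoNP.

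RNA was sequenced on Nanopore flow cells from 6 libraries of SK-N-BE, an established human neuroblastoma line, all from cells at day 1.5 of differentiation with 10 μM retinoic acid. Input (2 libraries) is RNA of the extract itself. CyCoNP PD (2 libraries) is RNA retrieved from the same kind of native extract with biotinylated DNA probes that pair with CyCoNP, a long non-coding RNA listed as LINC02381. LacZ PD (2 libraries) is the control pull-down, with probes against a bacterial gene. No group of undifferentiated cells and no group without CyCoNP was part of these libraries, and all groups share the retinoic acid. Depth ran from 18870 counts in LacZ PD 1 and 140115 in LacZ PD 2 to 514882 in CyCoNP PD 2, 717905 and 791970 in input, and 1512148 in CyCoNP PD 1. At these depths 3 counts equal 159 CPM (counts scaled to a common library total) in LacZ PD 1 and 21.4 CPM in LacZ PD 2, against 1.98 to 5.83 CPM in the other libraries. CyCoNP itself gave 11687 and 3507 counts in its own pull-down, 20 and 39 in input, and 1 and 20 in LacZ PD. All 14 sympathoadrenal markers, such as MYCN and PHOX2A, had counts in both input libraries, and all 5 haematopoietic markers were at 0 there. Of the 6 epithelial markers, 3 had counts in both input libraries, the highest being KRT19 with 12 and 20 counts. Among mesenchymal or fibroblast markers, COL1A1 differed between the input libraries with 192 and 10 counts, and the summed level of the 10 markers was 568, 353 and 477 CPM in replicate 1 of input, CyCoNP PD and LacZ PD, against 58.1, 87.4 and 71.4 CPM in replicate 2. The part of these markers in the differences between replicates was not tested. In such bulk libraries, fewer cycling cells and less RNA per cycling cell cannot be told apart.

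A dividing cell copies its DNA in S phase and separates the copies in mitosis. Cyclins switch on cyclin-dependent kinases (CDKs) in turn, the minichromosome maintenance (MCM) helicase opens the DNA for copying, and in mitosis microtubules of the spindle attach to chromosomes at kinetochores, protein assemblies built on centromeres. Retinoic acid is known to draw neuroblastoma cells out of the cycle and towards a neuronal state. CENPF is a very long coiled-coil protein that joins the outer kinetochore in mitosis. MKI67, whose protein Ki-67 is a common mark of cycling cells, coats the surface of mitotic chromosomes.

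CENPF (ENSG00000117724) lies on the plus strand of chromosome 1 of GRCh38 from 214603185 to 214664574, and MKI67 (ENSG00000148773) on the minus strand of chromosome 10 from 128096659 to 128126423. No other annotated gene shares exonic bases with either. The sequences that follow are the primers that the study lists for RT-qPCR of CENPF, whose PCR data are not analysed here, and the probes that show the longest exact match between the CyCoNP set and the mRNAs of CENPF and MKI67. The study reports that RT-qPCR on additional pull-down replicates showed enrichment of a subset of RNAs that included CENPF. The forward primer lies in exon 12 of CENPF at chr1:214643261-214643280 and the reverse primer in exon 13 at chr1:214644563-214644582, both in coding sequence, and they bound an amplicon of 90 bases on the spliced mRNA. In the probes, which are written 5′ to 3′, capitals mark the longest stretch that is exactly complementary to the annotated transcript. Both stretches are 11 bases long and span bases 2 to 12 of the probe. The stretch in CENPF crosses the junction of exons 19 and 20, and that in MKI67 lies in exon 4 of 15 at chr10:128122929-128122939, both in coding sequence.
CENPF forward primer: acgactccagctacaaggtc
CENPF reverse primer: cagctctcatttcggccttg
CyCoNP probe 17, against CENPF: tCAACTTTGACCcccaaatg
CyCoNP probe 6, against MKI67: gACAGGCTCATCtagatttc
All 22 CyCoNP probes matched annotated CyCoNP transcripts over their full 20 bases. To some CyCoNP probe, 21.9% of all tested genes were complementary over 11 bases or more. Such a stretch is a description of the letters and not a site of pairing.

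In input, 49 of the 50 genes had counts in both libraries, and the summed level of all 50 was 3148 and 3202 CPM. The single gene without input counts was CCND2, a D-type cyclin, with 2 counts over all 6 libraries. The share of the library a gene took spread widely, from 400.04 CPM on average for TOP2A to 2.02 CPM for CCNE2, an E-type cyclin, with a median of 32.7 CPM. TOP2A differed little between the input replicates, as did CENPF, while CCNB1 differed widely.

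The genes that took the most counts in input belonged to different roles. TOP2A, the topoisomerase that untangles chromosomes in mitosis, had 297 and 306 counts, or 414 and 386 CPM. TYMS, the thymidylate synthase that supplies thymidine nucleotides, had 190 and 299 counts, or 265 and 378 CPM. CCND1, the G1 cyclin that partners CDK4, had 245 and 108 counts, or 341 and 136 CPM. The values of TYMS and CCND1 overlapped between libraries, so their order is within the spread of the replicates. CDKN1A (p21), an inhibitor of CDKs that holds cells in G1, followed with 135 and 182 counts, or 188 and 229.8 CPM. CCNB1, the cyclin that drives entry into mitosis, had 35 counts in replicate 1 and 242 in replicate 2, or 48.7 and 306 CPM, the widest gap among these genes. CENPF came sixth by mean share with 103 and 117 counts, or 143 CPM (95% Wilson interval 118 to 174) and 148 CPM (123 to 177). These intervals, and the limits for counts of 0, hold only the counting error within 1 library and leave out the spread between replicates. Because amplified reads carried no molecular identifiers, even the counting error may be larger than shown. CPM is not scaled for length, and the order per kb of canonical transcript is given beside it as a second description. Whether counts of these cDNA reads grow with transcript length was not tested, and if they do not, division by length places long transcripts too low. Per kb the order was TYMS (199 CPM per kb), CDKN1A (98.7), CCNB1 (87.3) and TOP2A (70.2), and CENPF came 20th with 14.2.

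**Figure D1:**
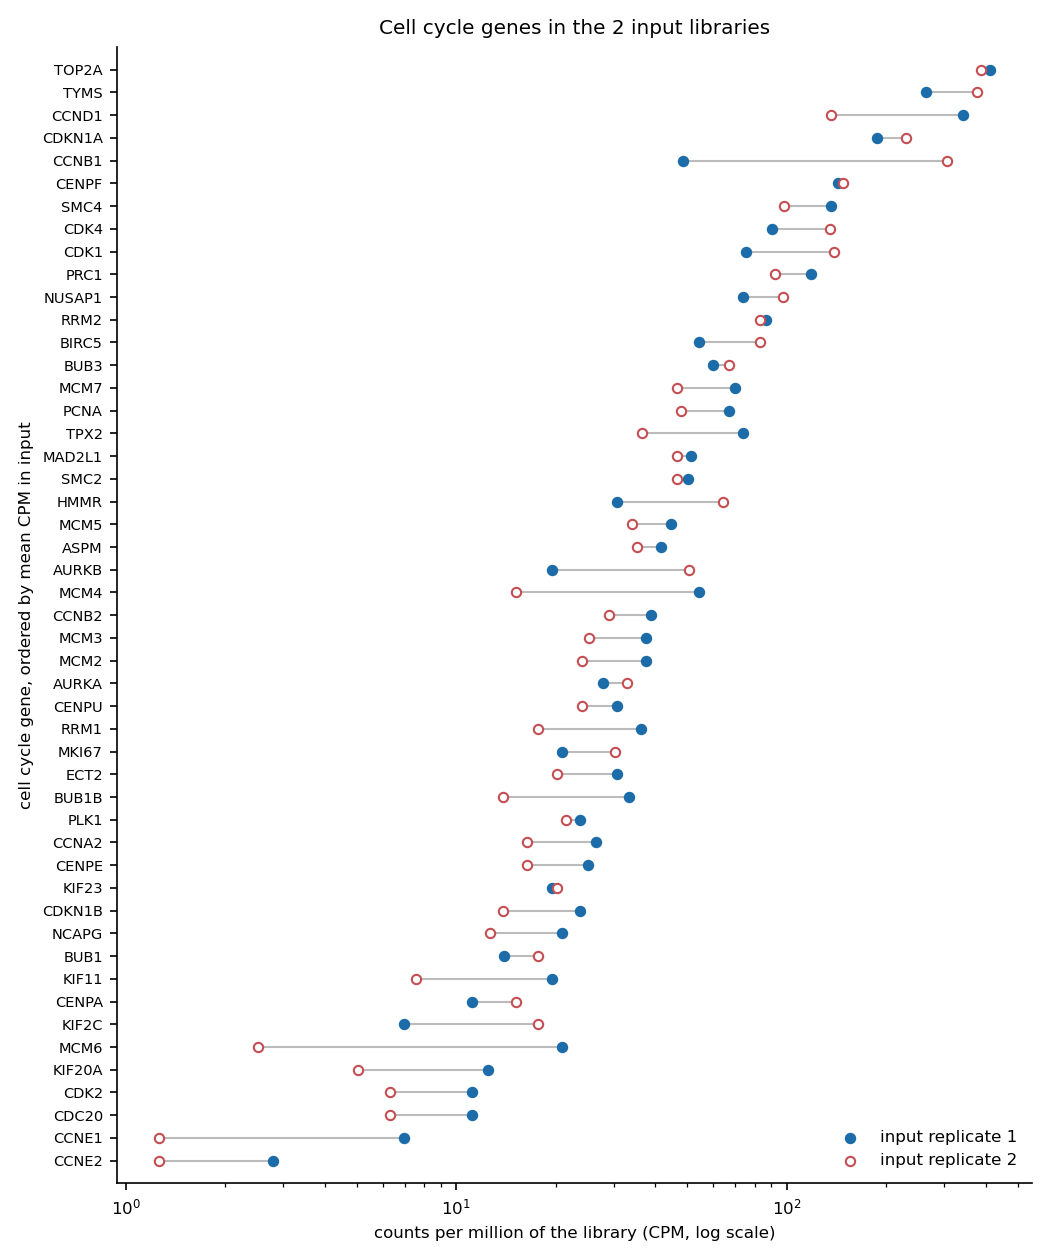
CPM of the 49 genes with input counts, on a log axis, in input replicate 1 (filled points) and replicate 2 (open points), ordered by their mean. TOP2A, TYMS and CCND1 stand at the top, CENPF has nearly the same level in both libraries, and CCNB1 and MCM6 lie far apart.

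The other genes took fewer counts. Of the replication genes, PCNA, the sliding clamp of DNA polymerase, had 48 and 38 counts, and the MCM helicase subunits ranged from 11.7 CPM for MCM6 to 58.2 CPM for MCM7. MKI67 had only 15 and 24 counts, or 20.9 CPM (95% Wilson interval 12.7 to 34.5) and 30.3 CPM (20.4 to 45.1), and ranked 31st of the 50 genes, or 48th per kb with 2.01 CPM per kb. The mitotic kinases PLK1, AURKA and AURKB had mean levels of 22.6, 30.3 and 35.0 CPM. CDC20, the activator of the anaphase-promoting complex, had 8 and 5 counts. CDKN1B (p27), the other CDK inhibitor, had 17 and 11 counts. Its mean level was below that of CDKN1A both in CPM (18.8 against 209) and per kb (7.79 against 98.7).

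Against input, CyCoNP PD held more MKI67 and CENPF RNA in both replicates, while the other 48 genes together did not exceed their input level. CENPF had 598 and 759 counts in CyCoNP PD against 103 and 117 in input, and 3 and 34 in LacZ PD. As a share of each library this was 395 CPM (95% Wilson interval 365 to 428) and 1474 CPM (1373 to 1583) in CyCoNP PD, and 159 CPM (54.1 to 467) and 243 CPM (174 to 339) in LacZ PD. Both CyCoNP PD libraries lay above both input libraries, and the interval of LacZ PD 1 reaches past CyCoNP PD 1. MKI67 had 321 and 355 counts in CyCoNP PD, or 212 CPM (190.3 to 237) and 689 CPM (621 to 765), and 0 and 11 counts in LacZ PD. The interval of the 0 in LacZ PD 1 runs up to 204 CPM, past the lower limit of CyCoNP PD 1, and LacZ PD 2 gave 78.5 CPM (43.8 to 141). Summed over the other 48 genes, the level was 2984 and 3024 CPM in input, 2239 and 2651 CPM in CyCoNP PD, and 2703 and 2612 CPM in LacZ PD.

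**Figure D2:**
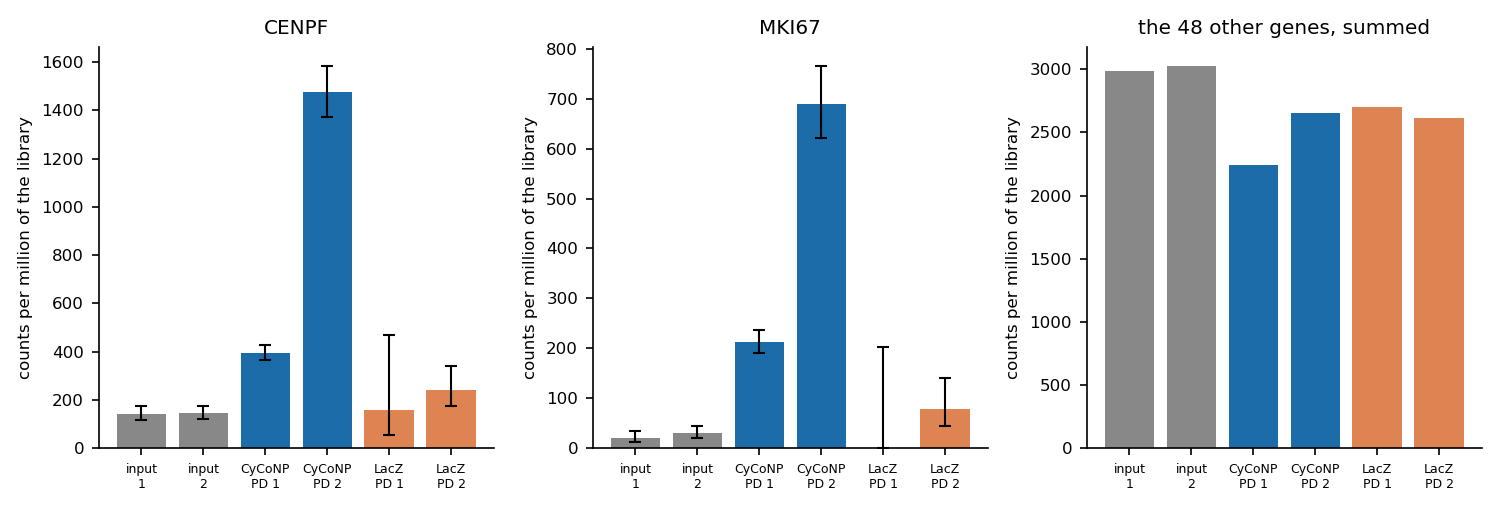
CPM of CENPF, of MKI67 and of the other 48 genes summed, in each of the 6 libraries (grey input, blue CyCoNP PD, orange LacZ PD), with 95% Wilson intervals for the single genes. CENPF and MKI67 stand highest in CyCoNP PD 2 and next in CyCoNP PD 1, while the summed other genes are highest in input.

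Differences were tested by the quasi-likelihood test of edgeR over all 12565 genes with at least 10 counts in total, 48 of the 50 genes among them. CCND2 and CCNE2 were under that minimum. After TMM normalization the mean level of CENPF was 163 ± 18.4 CPM (SD, n = 2) in input, and it was 1076 ± 849.8 CPM (SD, n = 2) with CyCoNP, a log2 fold change of 2.72 (standard error 0.74, unadjusted p = 0.00256). With Benjamini-Hochberg adjustment in edgeR its p was 0.299, so it was not called, and it ranked 106th by p among all genes. MKI67 had the larger change, with 29.0 ± 10.1 CPM (SD, n = 2) in input and then 519.8 ± 374 CPM (SD, n = 2) with CyCoNP. The log2 fold change of MKI67 reached 4.15 (standard error 0.86, unadjusted p = 0.000262, adjusted p = 0.0880 in edgeR), and the gene ranked 37th. An unadjusted p under 0.05 was seen for 3 of the 48 tested genes, 2 of them higher and 1 lower. Of all 12565 genes tested, 387 were higher and 291 lower at that level. In either direction 0 of the 48 were called, against 0.127% of all genes tested.

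DESeq2 and the fits with the replicate number as a block called both genes. In DESeq2 the log2 fold change was 2.68 for CENPF (adjusted p = 0.0481) and 4.13 for MKI67 (adjusted p = 0.00108), the only 2 genes called, with 15 of the 48 left without an adjusted p, beside 1.22% of all genes with one called enriched. With the replicate block, edgeR gave 2.44 for CENPF (adjusted p = 0.00287) and 3.9997 for MKI67 (adjusted p = 1.71e-08), with 1.53% of all genes called enriched. DESeq2 with the replicate block gave 2.36 (adjusted p = 0.00393) and 3.91 (adjusted p = 3.63e-06), with 13 of the 48 left without an adjusted p and 1.74% of all genes called enriched. The edgeR fit with the block also called TYMS depleted, with 0.732% of all genes called so. CENPF was thus not alone among these genes in any fit that called it, since MKI67 was called with it each time and had the larger fold change.

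The replicates of CyCoNP PD lay far apart for both genes. Within replicate 1, the TMM-normalized level of CENPF in CyCoNP PD was 3.16-fold that in input, and within replicate 2 it was 9.53-fold. For MKI67 the values were 11.7-fold and 21.7-fold. Of the 47 genes with counts in all input and CyCoNP PD libraries, MKI67 ranked highest and CENPF next in both replicates. These 2 were the only genes of the 47 above a log2 ratio of 1 in both, and 0 were below -1 in both. A share of 4.26% is close to the 4.61% of 10518 tested genes that were above 1 in both. Between the CyCoNP PD libraries, CENPF was higher in replicate 2 by 1.82 on the log2 scale. That gap was reached by 5.81% of the 10518 genes, and by 1.36% of the 2656 of them with 100 or more CyCoNP PD counts. The median gap was 0.44 over the 47 genes and -0.01 over the 10518. Leaving out each library in turn moved the log2 fold change of CENPF between 1.54 (without CyCoNP PD replicate 2) and 3.38 (without CyCoNP PD replicate 1), and that of MKI67 between 3.13 and 4.76 without the same libraries. Neither gene was called without a CyCoNP PD or LacZ PD library, and MKI67 passed in edgeR without input replicate 1 (3.83, adjusted p = 0.0313) and without input replicate 2 (4.56, adjusted p = 0.0451).

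**Figure D3:**
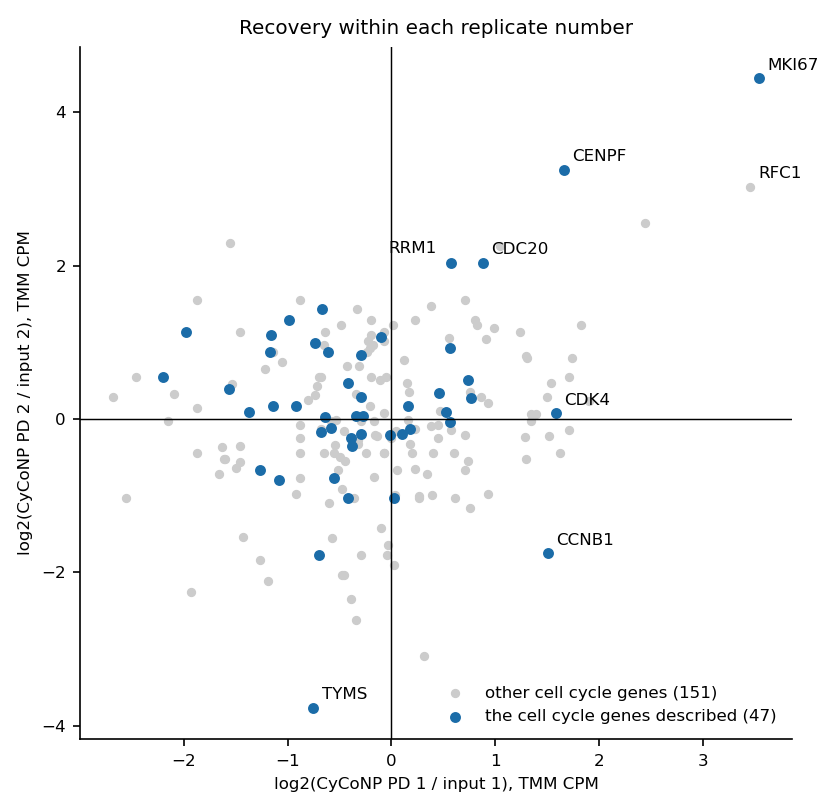
Log2 ratio of the TMM-normalized level in CyCoNP PD to that in input for replicate 1 (horizontal) and replicate 2 (vertical), for 47 of the genes described (blue) and 151 other cell cycle genes (grey) with counts in all 4 libraries. MKI67 and CENPF lie above 1 in both replicates, as do 5 of the other genes, with RFC1 and LIN37 farthest out, and CCNB1 changes sign between the replicates.

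Within a library, the ratio of a gene to the rest of the list needs no scaling between libraries. CENPF counts were 4.78% and 4.84% of the summed counts of the other 49 genes in input, 16.1% and 44.1% with CyCoNP, and 5.88% and 9.02% in LacZ PD. MKI67 counts were 0.668% and 0.955% in input, 8.06% and 16.7% with CyCoNP, and 0% and 2.75% in LacZ PD. For both genes each CyCoNP PD library was above all other libraries. An exact two-sided permutation test of CyCoNP PD against input gave p = 0.333 for each, the smallest value that 2 against 2 libraries can give.

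By role, most groups were spread around 0 in CyCoNP PD against input. The median log2 fold change was -0.10 over the 48 tested genes and -0.01 over all genes tested, with 21 genes higher and 27 lower. Both CyCoNP PD libraries lay above both input libraries for 8 of the 48 genes (17.2% of all genes tested) and below them for 9 (18.6% of all genes). Only 3 genes, CENPF, MKI67 and RRM1, were above every input and LacZ PD library (8.87% of all genes). These shares of the list are near those of all genes.

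Among the 4 centromere and kinetochore genes, CENPF had the largest log2 fold change. CENPE, the kinetochore motor, had a log2 fold change of -0.48, CENPA, the histone H3 variant of centromeres, 0.03, and CENPU, a protein of the inner kinetochore, 0.31. In the spindle checkpoint, which delays anaphase until chromosomes are attached, values ran from -0.74 for BUB1B to 1.40 for CDC20. BUB1B shares 240 exonic bases with PAK6 and 217 with BUB1B-PAK6 on the same strand, so its counts are uncertain. CDC20 had 27 and 14 counts in CyCoNP PD against 8 and 5 in input, and 1 and 7 in LacZ PD. Its CyCoNP PD libraries were above both input libraries, and so were its LacZ PD libraries (log2 fold change 2.17, unadjusted p = 0.0271, adjusted p = 0.666 in edgeR). MAD2L1, which binds CDC20 in the checkpoint, had 0.63. None of these genes but CENPF was called in any fit (0 of 8 genes). Against input, edgeR called 0.127% of all genes, and the other fits called 1.22% to 1.74% enriched. At these shares, 0 of 8 does not set the genes apart from all genes.

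The mitotic kinases and the passenger protein BIRC5 had log2 fold changes between -0.14 and 0.74, the highest for PLK1. Of the 10 genes of the spindle and cytokinesis, 8 were lower and 0 passed the test (0.127% of all genes in edgeR), with a median of -0.37. KIF20A, a kinesin of cytokinesis, had 9 and 4 counts in input, 5 and 0 with CyCoNP, and 0 in both LacZ PD libraries, and its log2 fold change of -1.85 (standard error 1.35) rests on few counts. ASPM, which organises spindle poles, had 26 and 11 counts in CyCoNP PD, below the 30 and 28 of input, with 0 and 1 in LacZ PD. Both CyCoNP PD libraries of ASPM were below input after scaling, with a log2 fold change of -0.94 (standard error 0.67, adjusted p = 0.9996 in edgeR). In this role, PRC1 shares 3181 exonic bases with ENSG00000284946 and NUSAP1 shares 2938 with ENSG00000285920. Both overlaps are on the same strand, so the counts of PRC1 and NUSAP1 are uncertain.

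In mitotic chromosome structure, MKI67 was higher and the other 4 genes lower. TOP2A had 227 and 132 counts with CyCoNP and 1 and 20 with LacZ, against 297 and 306 in input. After TMM normalization it was at 180.5 and 292 CPM in CyCoNP PD, below 433 and 461 CPM in input, with a log2 fold change of -0.92 (standard error 0.65, adjusted p = 0.9996 in edgeR). NCAPG, a subunit of condensin, had 17 and 2 counts in CyCoNP PD against 15 and 10 in input, and 2 in each LacZ PD library, with a log2 fold change of -0.92. NCAPG shares 1634 annotated exonic bases with LCORL on the other strand, so its counts are uncertain. The condensin ATPases SMC4 and SMC2 had -0.33 and -0.25.

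Cyclins and CDKs ranged from -1.18 for CCNE1 to 0.83 for CDK4, and 0 of the 8 tested were called (0.127% of all genes in edgeR). CCNB1 had 183 and 49 counts with CyCoNP and 2 and 20 with LacZ, against 35 and 242 in input. Its CyCoNP PD libraries lay between the input libraries, and its log2 fold change of -0.71 became 1.32 without input replicate 2. CCND1 had 289 and 75 counts with CyCoNP and 4 and 12 with LacZ, against 245 and 108 in input, a log2 fold change of -0.39 that became 0.29 without input replicate 1. CDK4, the kinase that CCND1 activates, had 357 and 77 counts in CyCoNP PD against 65 and 107 in input, with 4 and 35 in LacZ PD. Both CyCoNP PD libraries were above both input libraries after scaling, with a log2 fold change of 0.83 (standard error 0.63, adjusted p = 0.9996 in edgeR). CDK4 shares 1369 exonic bases with TSPAN31 on the opposite strand, as CCND1 shares 497 with LTO1, and use of strand in the counting is not given in the sources used here.

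The inhibitors did not move beyond their spread. CDKN1A had 265 and 108 counts with CyCoNP and 5 and 19 with LacZ, against 135 and 182 in input, with a log2 fold change of -0.07 (standard error 0.58). CDKN1B had 14 and 16 counts with CyCoNP and 2 and 1 with LacZ, against 17 and 11 in input, with a log2 fold change of 0.09 (standard error 0.86). For both genes the input and CyCoNP PD libraries overlapped after scaling.

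In DNA replication and nucleotide supply the extremes were the genes of nucleotide synthesis. TYMS had 207 and 15 counts in CyCoNP PD against 190 and 299 in input, and 3 and 6 in LacZ PD. All pull-down libraries of TYMS were below both input libraries after TMM normalization, with 165 and 33.1 CPM in CyCoNP PD and 93.7 and 42.6 CPM in LacZ PD, against 277 and 450.1 CPM in input. Its log2 fold change in CyCoNP PD was -1.85 (standard error 0.75, unadjusted p = 0.0267, adjusted p = 0.815 in edgeR), and -2.13 with the replicate block (adjusted p = 0.0118). TYMS shares 967 exonic bases with ENOSF1 on the other strand, so its counts are uncertain. RRM1, the large subunit of ribonucleotide reductase, had 71 and 39 counts in CyCoNP PD against 26 and 14 in input, and just 0 and 3 in LacZ PD, with a log2 fold change of 1.25 (standard error 0.69, adjusted p = 0.9996 in edgeR). RRM2, the small subunit, had 0.40. The 6 MCM subunits ranged from -1.03 for MCM6 to 0.01 for MCM2.

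**Figure D4:**
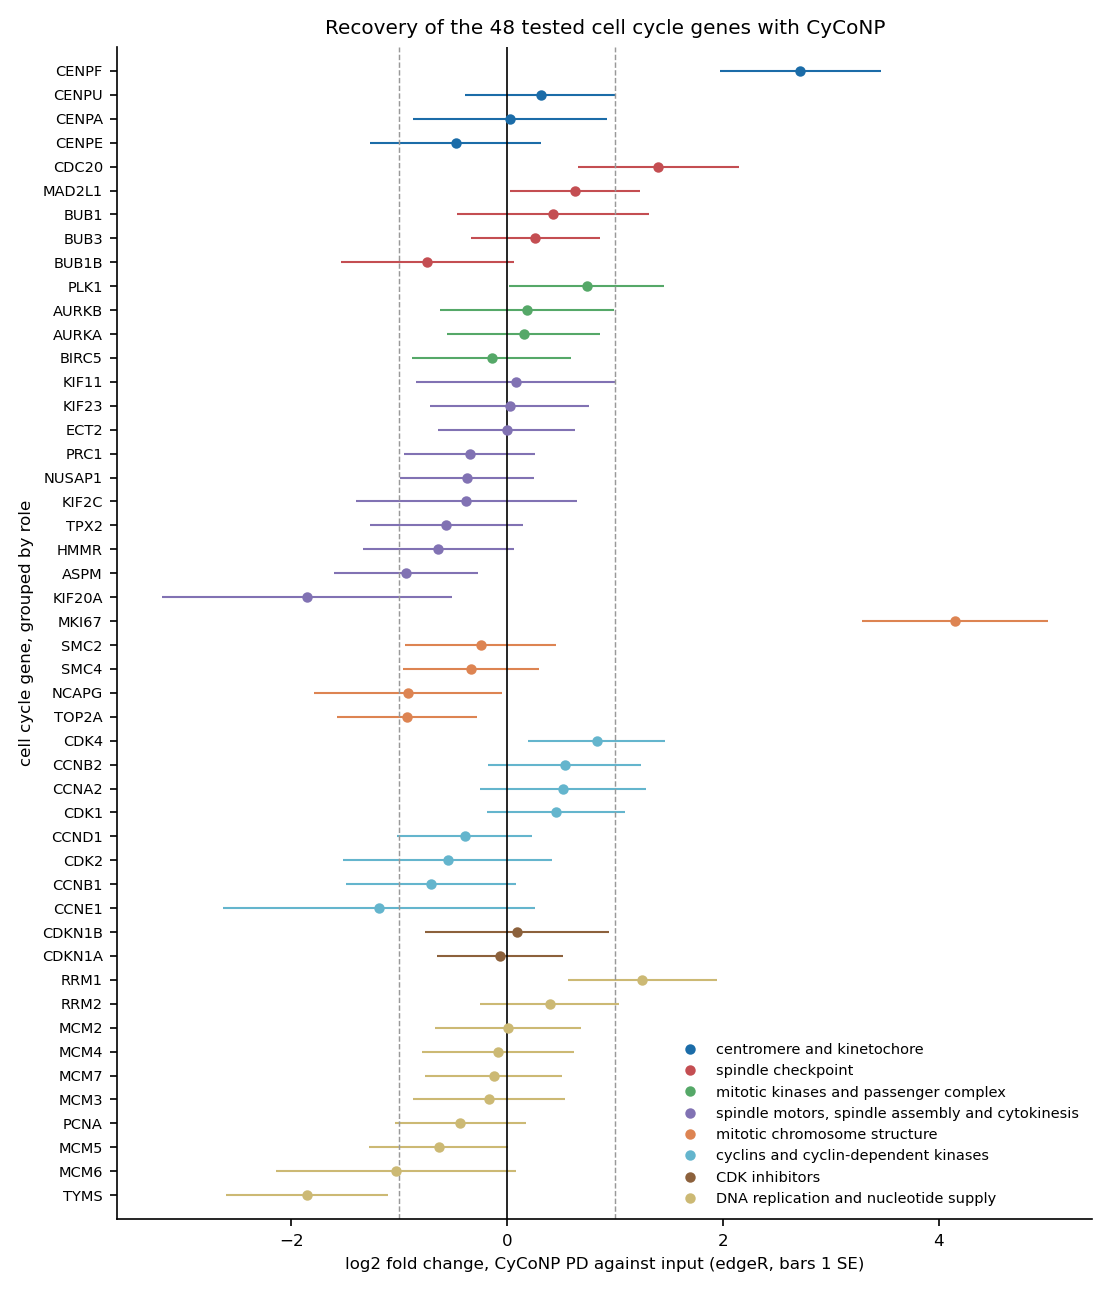
Log2 fold change of the 48 tested genes in CyCoNP PD against input from edgeR, coloured by role, with bars of 1 standard error and dashed lines at the limits of 1 and -1. MKI67 (4.15) and CENPF (2.72) lie apart on the right, and TYMS and KIF20A (both -1.85) are lowest.

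The control pull-down was set beside these values. It shares the input libraries with the comparison above. In LacZ PD against input, CENPF had a log2 fold change of 0.15 (standard error 0.75, adjusted p = 0.968 in edgeR) and MKI67 0.87 (standard error 0.91, adjusted p = 0.788 in edgeR). With TMM the median of all genes here was -0.68, below both values. Of the 48 genes, edgeR called 0, as it did among all genes (0.0%), while unadjusted p was under 0.05 for 1 higher and 4 lower genes. Of all 12565 genes tested, 93 were higher and 789 lower at that level. TYMS had a log2 fold change of -2.61 and TOP2A -2.14 (adjusted p = 0.607 for both in edgeR). With the replicate block TYMS was called depleted in edgeR (-2.69, adjusted p = 0.0206, 0.796% of all genes depleted) and TOP2A in DESeq2 (-2.17, adjusted p = 0.0322, 3.04% of all genes with an adjusted p depleted). DESeq2 without the block called 0, with 38 of the 48 left without an adjusted p. In 7 of the 50 genes, BUB1 and BUB1B among them, both LacZ PD libraries held 0 counts.

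Set directly against LacZ PD, CENPF in CyCoNP PD had a log2 fold change of 2.57 (standard error 0.77, unadjusted p = 0.00498, adjusted p = 0.665 in edgeR) and MKI67 3.28 (standard error 0.91, unadjusted p = 0.00282, adjusted p = 0.545 in edgeR). RRM1 had 2.12 (adjusted p = 0.871 in edgeR). The median of all genes in this comparison was 0.64 with TMM. At an unadjusted p under 0.05, 4 of the 48 genes were higher, as were 595 of all 12565 genes tested. Of the 48, 0 were called with edgeR (0.0% of all genes). DESeq2 called 0, with 29 of the 48 left without an adjusted p. With the replicate block both genes were called, CENPF at 2.55 (adjusted p = 0.0179) and MKI67 at 3.43 (adjusted p = 0.000946) in edgeR, where 0.724% of all genes were enriched. DESeq2 with the block called the same 2 genes, CENPF at 2.41 (adjusted p = 0.0188) and MKI67 at 3.34 (adjusted p = 0.0107), with 2.23% of all genes with an adjusted p enriched.

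CENPF and MKI67 are among the 3 longest transcripts of the list, which was not chosen on length. Their canonical transcripts in GENCODE v44 have 10290 bases in 20 exons and 12716 bases in 15 exons, against a median of 3083.5 bases over the 50 genes. ASPM, with 10863 bases, is longer than CENPF, and CENPE follows with 8541, and their log2 fold changes were -0.94 and -0.48. Across the 48 tested genes, Spearman's rho between length and log2 fold change was -0.08, a description over genes that share their libraries. Among all tested genes, 459 have a canonical transcript at least as long as that of CENPF, 3.66% of the total. Their median log2 fold change was -0.34, and 5 of the 459, CENPF and MKI67 included, reached the value of CENPF, compared with 335 of 12528 tested genes with an annotated transcript. The largest exon of MKI67 has 6845 bases and that of CENPF 3404.

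Of the 50 genes, 14 held 11 or more bases exactly complementary to a CyCoNP probe, the length shown above for CENPF and MKI67. The 4 genes with the highest log2 fold changes, MKI67, CENPF, CDC20 (1.40) and RRM1 (1.25), all held 11. Next in order, CDK4 (0.83) held 9, PLK1 (0.74) held 11 and MAD2L1 (0.63) held 10. ASPM and MCM6 also held 11, with log2 fold changes of -0.94 and -1.03, and TPX2 held 12, with -0.56. The median log2 fold change was 0.40 over the 13 tested genes with 11 or more such bases, 0.15 over the 11 of them other than CENPF and MKI67, and -0.25 over the 35 with fewer. Over all tested genes it was -0.065 for the 2740 with 11 or more and 0.0089 for the 9788 with fewer. Across the 48 tested genes, Spearman's rho between the length of the stretch and log2 fold change was 0.276, again a description over genes that share their libraries. The part of such stretches in the recovery of these genes was not tested, nor was pairing with mismatches.

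A wider list of 161 other cell cycle genes, of which 158 were tested, was set beside the 50. Their median log2 fold change in CyCoNP PD against input was -0.03, with 74 higher and 84 lower. Of them edgeR called 0, against 0.127% of all genes tested (1 was higher and 1 was lower by unadjusted p under 0.05). The higher gene was RFC1, the large subunit of the complex that loads PCNA onto DNA. It had 1165 and 300 counts in CyCoNP PD, against 58 and 54 in input and 0 and 10 in LacZ PD, so each CyCoNP PD library was far above the others. RFC1 had a log2 fold change of 3.26 (standard error 0.74, adjusted p = 0.137 in edgeR), and it was called with DESeq2 (3.18, adjusted p = 4.87e-05), with the block in edgeR (3.25, adjusted p = 5.17e-06) and with the block in DESeq2 (adjusted p = 0.000229). The lower gene was TOP2B, another topoisomerase. It had 25 and 8 counts in CyCoNP PD against 52 and 56 in input, and 0 and 3 in LacZ PD. It was called depleted only with the block in edgeR (-2.05, adjusted p = 0.0320). Of the 17 other centromere proteins, 0 were called in any of these fits, with log2 fold changes from -0.94 to 0.99, and of the 25 other kinetochore proteins tested, 0 were called. DESeq2 left 8 of the 17 and 18 of the 25 without an adjusted p. Over all genes, DESeq2 called 1.22% enriched, and the block fits 1.53% in edgeR and 1.74% in DESeq2. At such shares, 0 calls in lists this small do not set them apart from all genes.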

How the data were processed

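The authors basecalled Nanopore PCR-cDNA reads with Guppy, filtered them by quality and length, aligned them with minimap2 2.24-r1122 to GRCh38 and counted them per Ensembl gene with Bambu. The deposited counts are whole numbers, not normalized. The deposited CPM values were used only to check the counts, and differed from CPM computed on the library totals by at most 5.1e-11. Genes reaching 10 counts in total were tested in 1 fit of all 6 libraries (edgeR 4.0.16, R 4.3.3, TMM, quasi-likelihood test, Benjamini-Hochberg adjustment). Calls needed an adjusted p under 0.05 with a log2 fold change over 1 or under -1. DESeq2 1.42.0 was an alternative, beside other scalings, filters, sample sets, the replicate block and leaving out each library. A gene without an adjusted p in DESeq2 was left out of its counts. Standard errors came from the F statistic. GENCODE v44, which is later than the authors' annotation but on the same build, gave symbols, positions and canonical transcripts and named 12528 of 12565 tested genes. Probe and primer sequences are those the study lists.

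The replicates are described as biological duplicates, and their counts differed by more than sampling noise (chi-square per degree of freedom 18.4, 14.3 and 4.11 in input, CyCoNP PD and LacZ PD). Deviations of same-numbered libraries from their group means correlated at 0.257 to 0.449 across genes. Only 3 of these correlations are distinct with 2 libraries a group. The main edgeR fit did not treat same-numbered libraries as paired, and the replicate block was an alternative. No source used here says that a replicate number marks a shared extract. The members and lists were chosen with earlier results of these data known. Genes given with values in every library are CENPF, members called in any of 4 fits, the 6 highest in input, the 5 smallest p in each direction and the CDK inhibitors. Genes named in the closing observations were chosen after their values were seen. For genes outside the list, the same rule names LINC02381, GAPDH and called genes of the wider list. GAPDH, the study's negative control, gave 0.85 on the log2 scale in CyCoNP PD against input (adjusted p = 0.9996 in edgeR). It gave 0.80 in LacZ PD against input and 0.04 in CyCoNP PD against LacZ PD.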

Additional observations from a re-analysis of the deposited data

How the results depend on the processing

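Causes were not tested. In each alternative run, the log2 fold changes of CENPF and MKI67 in CyCoNP PD against input stayed above 1, but whether they were called depended on the fit. CENPF passed with DESeq2 (2.68), and with the replicate block in edgeR (2.44) and DESeq2 (2.36). Against LacZ PD it passed only with the replicate block (2.55 and 2.41). MKI67 passed in those fits and also against input with no count filter and without either input library. In LacZ PD against input, CENPF turned to -0.10 with the replicate block in edgeR and -0.048 in DESeq2, and ranged from -1.03 to 0.55 when single libraries were left out, while MKI67 ranged from -7.17 to 1.40, the lowest without LacZ PD replicate 2, where only a count of 0 is left.

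Among the listed genes called enriched in CyCoNP PD against input, the number was 2 with DESeq2, 1 with no filter, 2 with the block in either tool, and from 0 to 1 without single libraries. In the depleted direction it was 1 with the block in edgeR. In LacZ PD 1 was depleted with the block in either tool. Against LacZ PD the number enriched was 1 with no filter, 1 with only the 2 groups compared, 2 with the block in either tool, and from 0 to 1 without single libraries.

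Over all genes, those called in either direction against input numbered 16 in edgeR and 72 with DESeq2, 126 with no filter, 6 with scaling by library size, 0 with only the 2 groups (370 higher and 331 lower at p under 0.05), 284 and 122 with the replicate block in edgeR and DESeq2, and from 0 to 121 without single libraries. Both counts of 0 there came without a LacZ PD library (369 and 380 higher at p under 0.05). In LacZ PD they were 59, 36, 116 and 80 with DESeq2, no filter and the 2 block fits, and from 0 to 27 without single libraries. Against LacZ PD they were 38 with DESeq2, 62 with no filter, 1 with scaling by library size, 59 with only the 2 groups, 97 and 56 with the block, and from 0 to 60 without single libraries.

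Of the other named genes in CyCoNP PD against input, CDKN1B turned to -0.012 with the block in edgeR and ranged from -0.88 to 0.78 without single libraries. CCNB1 ranged from -1.52 to 1.32, CCND1 from -0.85 to 0.29 and CDKN1A from -0.29 to 0.19. The block changed no other call than those given. LacZ PD is too shallow to show low levels of most of these genes.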

Other observations

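Of the 161 other cell cycle genes, 158 had counts in both input libraries, with a summed level of 5673 and 7071 CPM. All genes named in these paragraphs were picked once their values were known. CDK6, a kinase that D-type cyclins activate, took the largest share with 313 and 491 CPM in input. SKA2, a kinetochore protein that helps hold microtubules, had 255 and 356 CPM, and PTTG1 (securin), which keeps sister chromatids together until anaphase, had 145 and 386 CPM.

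Several genes shared the gap of CCNB1 between the input libraries, with more counts in replicate 2. CKS1B and CKS2, small proteins that bind CDKs, had 53 and 243 counts and 62 and 225 counts. RFC4, a subunit of the PCNA loader, had 92 and 252. TOP2A, with 297 and 306 counts, and HELLS, a chromatin remodeller, with 148 and 150, showed no such gap. The cause was not tested.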
